A study of Rattus norvegicus with 16 samples.

Results

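A set of 10 genes that mark resident macrophages was followed in the superficial kidney cortex of rats that drank fructose or water on a normal-salt or a high-salt base diet. The genes are Cx3cr1, Csf1r, Cd68, Adgre1, C1qa, C1qb, C1qc, Cd163, Mrc1 and Tyrobp, chosen by symbol as a list of cell markers. The array annotation tied each of the 10 to exactly 1 TranscriptClusterID, the gene-level unit of the array, so that the list took 10 of the 36685 TranscriptClusterIDs measured. The 16 animals were male Sprague Dawley rats, an outbred strain, aged 7 weeks, divided over 4 groups of 4, and the cortex of each was hybridized to an Affymetrix RaGene-2_0-st array of its own. FHS rats had 20% fructose as their fluid together with the high-salt chow, which holds 4% NaCl, and CHS rats had tap water with that same chow. FNS rats had 20% fructose with the normal-salt chow, and CNS rats had tap water with it. Each regimen was kept for 7 days. The chows came from different makers and differ in composition beyond their salt, so a difference between chows is one between base diets and cannot be assigned to NaCl alone. Rats were housed in pairs, and the labels do not say which rats shared a cage. Rats are named here by number, 13 to 16 in FHS, 9 to 12 in CHS, 5 to 8 in FNS and 1 to 4 in CNS.

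Macrophages that live in the kidney sit between tubules and capillaries, where they engulf debris and sense fractalkine through the receptor Cx3cr1. Their survival depends on signals through the tyrosine kinase receptor Csf1r, whose ligands are Csf1 and Il34. They also make the 3 chains of C1q, the first component of classical complement, and bear scavenger and pattern receptors such as Cd163 and Mrc1. In RNA of whole cortex, fewer cells of a type cannot be told apart from less of a transcript per cell.

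All values are log2 RMA signals, which the authors' processing had corrected for background, array and probe effects, and a difference of 1 is a 2-fold change. Levels of different genes rest on different probes and are not compared with each other. A gene is said to have risen or fallen where its limma p, adjusted by the Benjamini-Hochberg method over all 36685 TranscriptClusterIDs, was under 0.05. The arrays correlated with each other between 0.968 and 0.99. The median signal of an array still differed, and lay between 5.33 and 5.44 in FHS rats and between 5.25 and 5.34 in the other 3 groups. Markers of the proximal tubule, the main cell of the cortex, averaged between 11.95 and 12.40 in every rat. The 10 macrophage markers averaged between 6.53 and 6.88.

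The promoters of 4 markers are shown because the values below turn on these genes, Cx3cr1 and Csf1r for the lowest levels in CHS rats and C1qa and C1qb as chains of one protein, of which C1qa passed in one comparison. Each is the RefSeq sequence of build GRCr8 from 250 bases before to 50 bases after the annotated start, read in the direction of the gene. The capitals mark matches to GAGGAA and to AGGAAGT, purine-rich letters of the kind bound by PU.1, the factor encoded by Spi1 that myeloid cells depend on. Both strands were searched, so a match on the other strand reads TTCCTC or ACTTCCT, and the motifs can overlap each other.
Cx3cr1 (chr8:128677017-128677316, minus strand): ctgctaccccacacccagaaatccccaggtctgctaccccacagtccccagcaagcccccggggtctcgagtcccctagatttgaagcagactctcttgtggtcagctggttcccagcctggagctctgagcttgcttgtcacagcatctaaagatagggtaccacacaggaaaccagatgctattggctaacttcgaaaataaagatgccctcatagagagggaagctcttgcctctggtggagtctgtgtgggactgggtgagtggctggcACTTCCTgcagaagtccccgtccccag
Csf1r (chr18:56834129-56834428, plus strand): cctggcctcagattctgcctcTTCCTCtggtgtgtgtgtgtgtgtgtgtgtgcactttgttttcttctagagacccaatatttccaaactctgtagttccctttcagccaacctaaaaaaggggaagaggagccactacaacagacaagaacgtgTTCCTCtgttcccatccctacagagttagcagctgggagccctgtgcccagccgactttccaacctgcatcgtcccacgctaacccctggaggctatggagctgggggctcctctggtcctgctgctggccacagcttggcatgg
C1qa (chr5:154419884-154420183, minus strand): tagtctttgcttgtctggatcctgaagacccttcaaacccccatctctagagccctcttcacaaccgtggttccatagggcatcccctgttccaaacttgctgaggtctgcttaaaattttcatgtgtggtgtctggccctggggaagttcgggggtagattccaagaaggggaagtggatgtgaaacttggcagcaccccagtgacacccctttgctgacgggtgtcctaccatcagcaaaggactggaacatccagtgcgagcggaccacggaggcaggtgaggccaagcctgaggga
C1qb (chr5:154407778-154408077, minus strand): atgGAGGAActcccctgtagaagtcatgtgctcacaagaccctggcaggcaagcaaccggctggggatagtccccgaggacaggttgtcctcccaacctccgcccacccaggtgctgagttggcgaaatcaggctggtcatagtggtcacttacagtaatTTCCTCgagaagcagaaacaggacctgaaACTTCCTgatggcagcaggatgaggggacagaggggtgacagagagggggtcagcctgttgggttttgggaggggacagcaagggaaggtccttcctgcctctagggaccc
In Csf1r, GAGGAA was matched 229 and 95 bases before the start, and in C1qb 247 and 90 bases before it, with AGGAAGT 61 bases before it. In Cx3cr1 the single match, to AGGAAGT, began 23 bases after the start. The window of C1qa held neither set of letters. Among the 8 markers that matched the promoter table, 5 held GAGGAA, which is found in 27.6% of the 33469 rat promoters of the same length, and 3 held AGGAAGT, found in 8.41% of them. These matches describe letters and not binding.

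Cx3cr1, the fractalkine receptor, fell on the high-salt chow in water-drinking rats. Its 4 CHS signals were 7.08, 7.01, 7.17 and 7.14, against 7.88, 7.98, 7.92 and 7.81 in CNS rats. Every CHS rat lay below every CNS rat, and the gap between the groups was several times the spread within either. The mean was 7.10 ± 0.07 in CHS rats and 7.90 ± 0.07 in CNS rats (SD, n = 4 each). The difference of -0.79 ± 0.09 (SE), or 0.577 times the CNS level, had a limma adjusted p of 0.00043 and was the 20th smallest p among the 36685. An exact permutation test of the 4 against 4 rats gave p = 0.0286, two-sided, the smallest that 70 splits allow. Under 22 other ways of processing the data, each rat left out in turn included, its adjusted p ranged between 0.000142 and 0.00596.

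In rats that drank fructose, Cx3cr1 was closer between the chows. The FHS signals were 7.71, 7.53, 7.64 and 7.41, and the FNS signals were 7.78, 7.70, 7.63 and 7.91. The groups overlapped, with means of 7.57 ± 0.13 in FHS rats and 7.75 ± 0.12 in FNS rats, and the difference of -0.18 ± 0.09 (SE) did not pass (limma adjusted p = 0.268). Set against CHS rats, every FHS rat had more Cx3cr1 transcript, by 0.47 ± 0.09 (SE) or 1.38-fold on average. That difference was the 38th smallest p of its comparison but did not pass after adjustment (limma p = 0.000109, adjusted p = 0.105; exact permutation p = 0.0286). Leaving out the dimmer TranscriptClusterIDs, and so testing 18342 of them, brought the adjusted p to 0.048. That was the only 1 of 22 other settings in which the difference passed, and its limma adjusted p reached 0.364 among them. On the normal-salt chow the fructose change in Cx3cr1 was -0.14 ± 0.09 (SE; limma adjusted p = 1.00), with FNS and CNS rats overlapping. The fructose change was thus 0.61 ± 0.13 (SE) higher on the high-salt than on the normal-salt chow, the 8th smallest p of that comparison, and did not pass (limma adjusted p = 0.599; between 0.375 and 0.897 in 21 other settings).

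Ordered by mean, Cx3cr1 was highest in CNS rats, then FNS, FHS and CHS. The neighbours CNS and FNS overlapped, as did FNS and FHS, whereas FHS and CHS did not. The ligand Cx3cl1, the membrane-bound chemokine fractalkine, had signals of 10.18, 10.67, 10.29 and 10.10 in FHS rats, against 9.96, 9.85, 9.95 and 10.05 in CHS rats. All FHS rats lay above all CHS rats, by 0.36 ± 0.13 (SE) on average, and the difference did not pass (limma adjusted p = 0.432). Between CHS and CNS rats, Cx3cl1 differed by -0.15 ± 0.13 (SE; limma adjusted p = 0.612), with signals in CNS rats between 10.02 and 10.24.

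**Figure D1:**
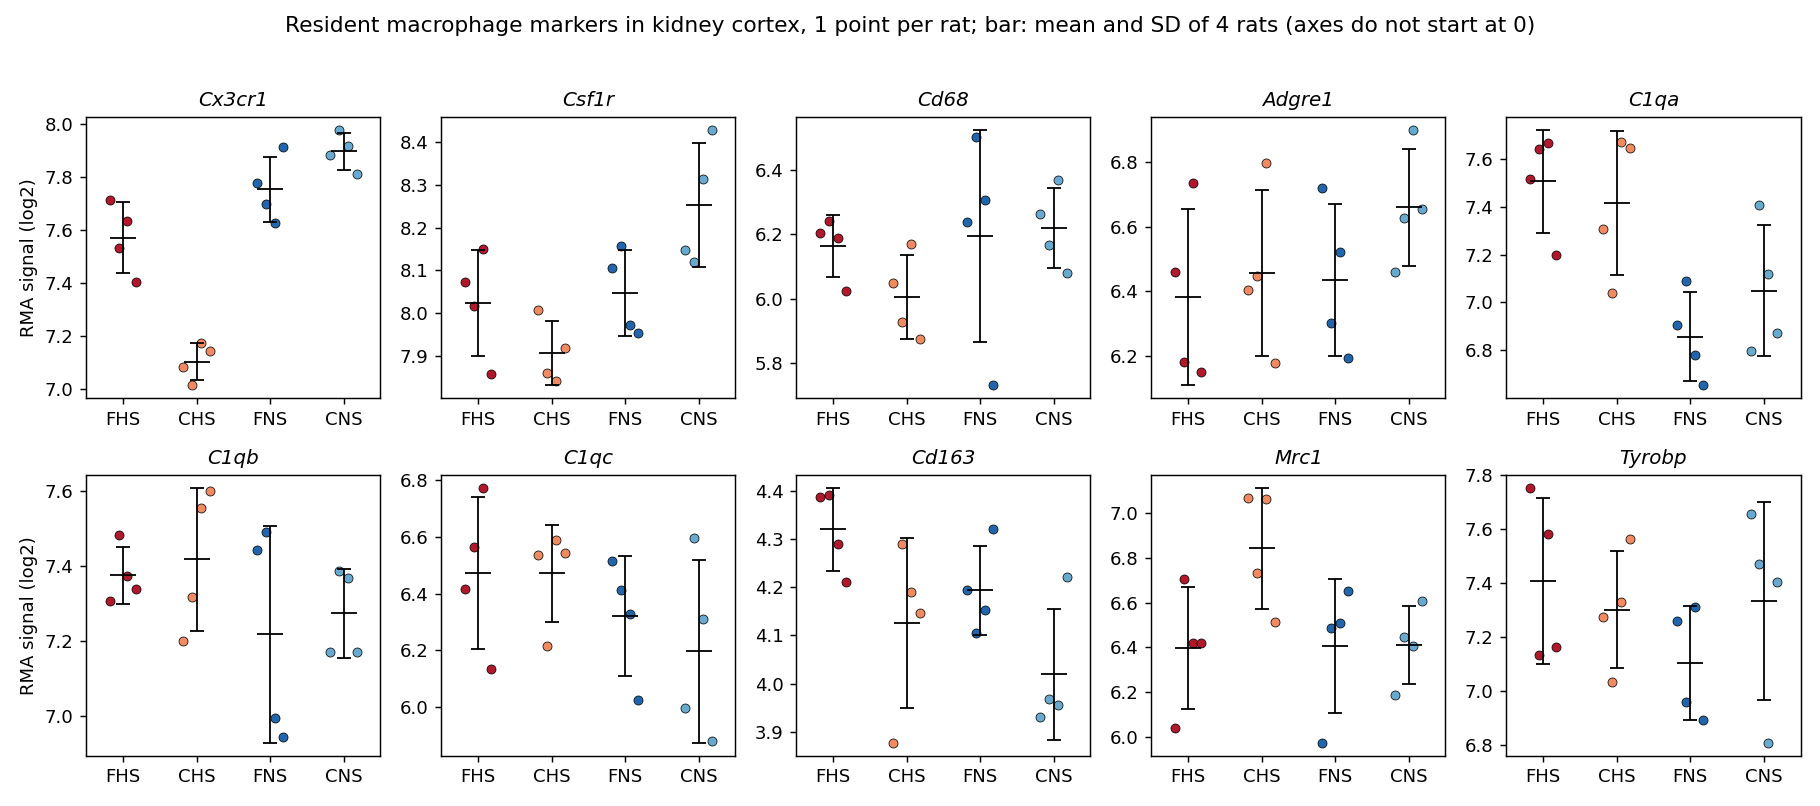
Log2 RMA signal of each of the 10 markers (vertical axes, which do not start at 0) in FHS, CHS, FNS and CNS rats; each point is 1 rat, and the bars give the mean and SD of 4 rats. The 4 CHS rats have Cx3cr1 signals between 7.01 and 7.17, below all other rats, while their Mrc1 signals reach 7.07.

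Csf1r, the receptor that keeps macrophages alive, was also lowest in CHS rats. Its signals there were 8.01, 7.86, 7.84 and 7.92, against 8.15, 8.12, 8.31 and 8.43 in CNS rats. The groups did not overlap, yet the difference of -0.35 ± 0.10 (SE) lay just outside the threshold (limma adjusted p = 0.0615; exact permutation p = 0.0286). It passed in 4 of 22 other settings, at adjusted p values of 0.0286 without the dimmer TranscriptClusterIDs, 0.0397 with an intensity trend in the variance, 0.0408 with array weights and 0.0489 without CNS rat 2. In fructose-drinking rats the Csf1r signals overlapped between the chows, at 8.07, 8.02, 8.15 and 7.86 in FHS rats and 8.11, 8.16, 7.97 and 7.95 in FNS rats, with a difference of -0.02 ± 0.10 (SE; limma adjusted p = 0.923) that turned to 0.0287 after quantile normalization. The fructose change was 0.12 ± 0.10 (SE) on the high-salt chow and -0.21 ± 0.10 (SE) on the normal-salt chow, and their difference of 0.32 ± 0.14 (SE) did not pass (limma adjusted p = 0.812).

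The ligands of Csf1r differed in pattern. Csf1, the macrophage colony-stimulating factor, had signals of 6.92, 6.70, 6.86 and 6.84 in CHS rats, against 6.91, 7.09, 7.34 and 7.07 in CNS rats, and its difference of -0.27 ± 0.10 (SE) did not pass (limma adjusted p = 0.161). Il34, the other ligand, differed by 0.10 ± 0.11 (SE) between CHS and CNS rats (limma adjusted p = 0.674). Between FHS and FNS rats Il34 differed by 0.31 ± 0.11 (SE; limma adjusted p = 0.103), with signals of 7.86, 8.11, 8.11 and 7.98 in FHS rats and 7.63, 7.63, 7.93 and 7.64 in FNS rats. Of the 3 ligand genes, none passed in any of the comparisons.

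**Figure D2:**
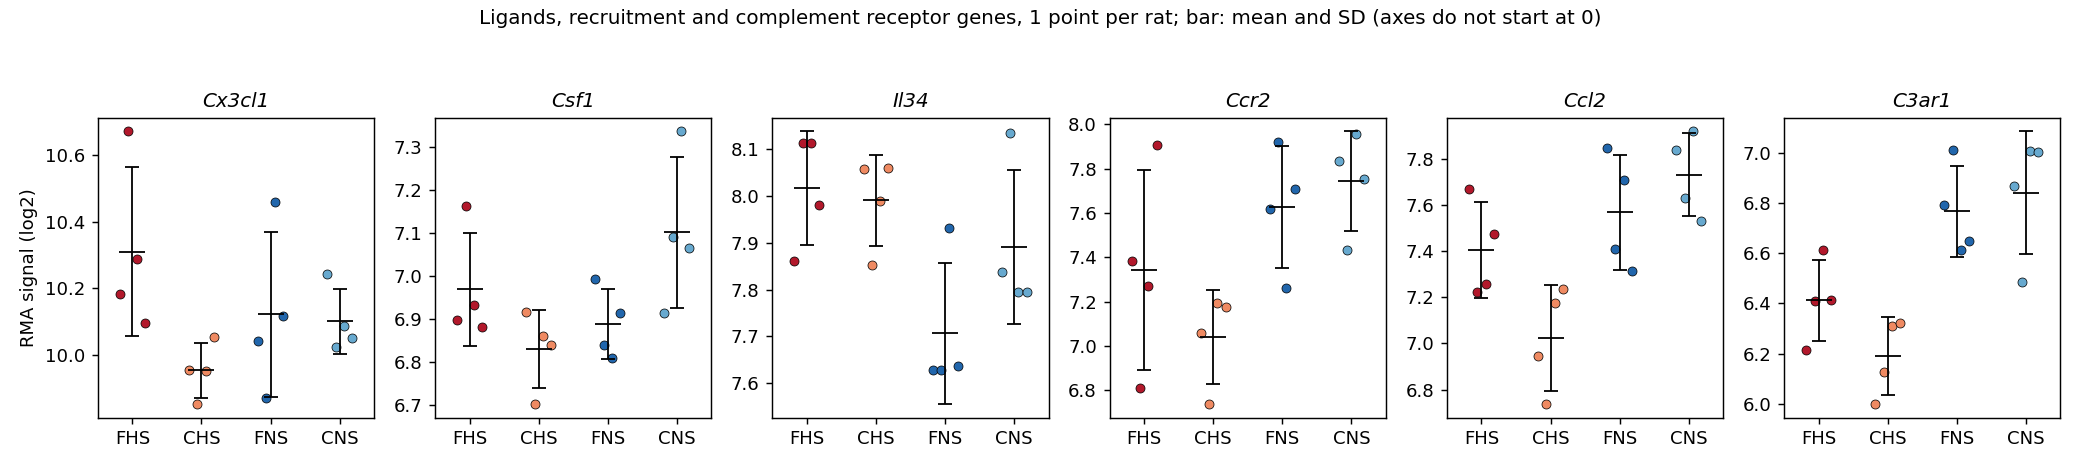
Log2 RMA signal (vertical axes, which do not start at 0) of the ligands Cx3cl1, Csf1 and Il34, the recruitment genes Ccr2 and Ccl2, and the anaphylatoxin receptor C3ar1 in FHS, CHS, FNS and CNS rats; each point is 1 rat, and the bars give the mean and SD of 4 rats. Ccl2 and C3ar1 lie lower in all 4 CHS rats than in any CNS rat.

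Of the 3 C1q chains only C1qa passed, and only in FHS against FNS rats. C1qa, the A chain, rose on the high-salt chow in fructose-drinking rats: its signals were 7.52, 7.64, 7.67 and 7.20 in FHS rats, against 6.91, 7.09, 6.78 and 6.65 in FNS rats. All FHS rats lay above all FNS rats, and the difference of 0.65 ± 0.17 (SE), or 1.57-fold, passed (limma adjusted p = 0.0365; exact permutation p = 0.0286). This call was less secure than that of Cx3cr1. Its limma adjusted p ranged between 0.0212 and 0.105 over 22 other settings, and it was kept in 15 of them. It was lost when any one of rats 5, 7 and 8 of FNS or 13, 14 and 15 of FHS was left out. It was also lost, at 0.0511, when only the 8 arrays compared were used. The settings that kept the call include those without a CNS or CHS rat, which cannot move this difference. Of the rats compared, only rat 6 of FNS and rat 16 of FHS could be left out with the call kept. In water-drinking rats C1qa had signals of 7.31, 7.04, 7.67 and 7.65 in CHS rats and 6.80, 7.41, 7.12 and 6.87 in CNS rats, which overlapped, with a difference of 0.37 ± 0.17 (SE; limma adjusted p = 0.262). The chow change of C1qa with fructose was 0.28 ± 0.24 (SE) above that with water, and this did not pass (limma adjusted p = 0.86).

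C1qb and C1qc, the B and C chains, lay above 0 in both chow comparisons without passing. C1qb differed by 0.16 ± 0.13 (SE) between FHS and FNS rats and by 0.14 ± 0.13 (SE) between CHS and CNS rats. C1qc differed by 0.15 ± 0.17 (SE) between FHS and FNS rats and by 0.28 ± 0.17 (SE) between CHS and CNS rats. The limma adjusted p of these differences lay between 0.423 and 0.66. On the high-salt chow the fructose change between FHS and CHS rats was 0.09 ± 0.17 for C1qa, -0.04 ± 0.13 for C1qb and 0.0008 ± 0.17 for C1qc (SE), the last turning to -0.0368 after quantile normalization and -0.0711 with arrays centred on their medians.

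The 3 genes of C1q lie next to each other on rat chromosome 5, with no other annotated gene between them, and their levels were compared from rat to rat. With the mean of each group taken out, C1qa and C1qc had a Pearson r of 0.867 over the 16 rats, the highest of the 45 pairs of markers (permutation p = 0.00018, adjusted over 45 pairs 0.0081). Spearman's rho was 0.853 (permutation p = 0.0003, adjusted 0.0135), and r was 0.823 without the 2 rats farthest from the median of C1qa. For C1qa and C1qb r was 0.719 (permutation p = 0.00255, adjusted 0.0574) and rho 0.741 (permutation p = 0.0018, adjusted 0.0405), with r at 0.788 without the 2 farthest rats. For C1qb and C1qc r was 0.576 (permutation p = 0.011, adjusted 0.165) and rho 0.668 (permutation p = 0.00544, adjusted 0.0816), with r at 0.517 without the 2 farthest. Of the 45 pairs, C1qa with C1qc thus passed by both measures, C1qa with C1qb by rho alone and C1qb with C1qc by neither. Beyond the pairs of C1q chains the highest r was that of Cd68 with C1qc at 0.512, and the median of the 45 pairs was 0.095, with 31 of 45 above 0 and the lowest, Mrc1 with Tyrobp, at -0.49. Within each group the 4 rats are too few for a correlation of their own.

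**Figure D3:**
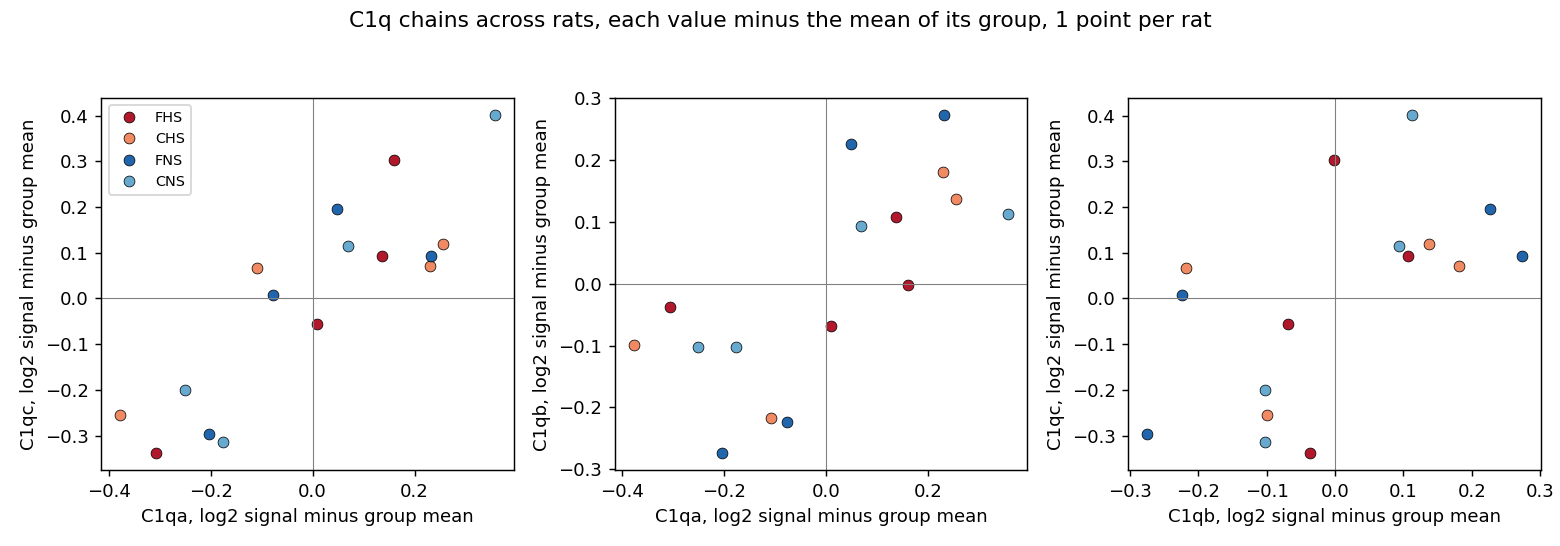
Levels of the C1q chains set against each other, each rat's log2 signal minus the mean of its group on both axes, with 1 point per rat coloured by FHS, CHS, FNS and CNS. Rats with C1qa above their group mean also tend to have C1qc above it (r = 0.867), and the points of C1qb with C1qc are more scattered (r = 0.576).

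Other parts of the complement pathway were examined beside C1q. Of 9 listed partners 5 were measured. C3ar1, the receptor for the C3a fragment and itself a myeloid gene, fell in CHS rats, with signals of 5.999, 6.13, 6.31 and 6.32, against 6.87, 6.49, 7.01 and 7.00 in CNS rats. The difference was -0.65 ± 0.13 (SE; limma adjusted p = 0.0164), with no overlap, and the gene was singled out after its values were seen. It was the 1 of 5 that passed there, where 3.29% of all TranscriptClusterIDs did. Groups without overlap in the lower direction were seen for 6.19% of all. The proteases C1r and C1s, which C1q activates, differed between FHS and CHS rats by 0.37 ± 0.13 and 0.31 ± 0.13 (SE; limma adjusted p = 0.407 and 0.495), and Serping1, the inhibitor of both, by 0.40 ± 0.27 (SE). All 5 measured partners lay above 0 between FHS and CHS rats, also after both other scalings, beside 56.4% of all TranscriptClusterIDs. Their median was 0.31 beside 0.0291 over all. None of them passed, where 0.00273% of all did.

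Mrc1, the mannose receptor, was highest in CHS rats, in contrast to Cx3cr1 and Csf1r. Its signals were 7.07, 6.73, 7.06 and 6.51 in CHS rats, against 6.19, 6.45, 6.41 and 6.61 in CNS rats, and only CHS rat 12 fell within the CNS range. The difference of 0.43 ± 0.17 (SE) did not pass (limma p = 0.0246, adjusted p = 0.196; exact permutation p = 0.0571). FHS rats, at 6.04, 6.71, 6.42 and 6.42, were lower than CHS rats by 0.45 ± 0.17 (SE), again short of the threshold (limma p = 0.0206, adjusted p = 0.446; exact permutation p = 0.0571). Between FHS and FNS rats the difference was -0.01 ± 0.17 (SE), the FNS signals being 5.97, 6.49, 6.51 and 6.65. The fructose change of Mrc1 on the high-salt chow minus that on the normal-salt chow was -0.44 ± 0.25 (SE) and did not pass (limma adjusted p = 0.831).

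Cd68, a lysosomal glycoprotein of phagocytes, and Adgre1, an adhesion receptor of mature macrophages, did not pass in any comparison. Cd68 ranged between 5.87 and 6.17 in CHS rats and between 6.08 and 6.37 in CNS rats, a difference of -0.21 ± 0.14 (SE; limma adjusted p = 0.443). FHS rats, between 6.02 and 6.24, differed from CHS rats by 0.16 ± 0.14 (SE), and FNS rats spread most widely, between 5.73 and 6.50. Adgre1 ranged between 6.15 and 6.74 in FHS rats, between 6.18 and 6.80 in CHS rats, between 6.19 and 6.72 in FNS rats and between 6.46 and 6.90 in CNS rats. Its group means stayed within 0.28 of each other and its lowest limma adjusted p was 0.554.

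Cd163, the scavenger receptor for haptoglobin bound to haemoglobin, did not pass in any comparison. Cd163 was dim, with a mean signal of 4.16 at the 29.6 percentile of all TranscriptClusterIDs, and RMA compresses changes of dim features. It ranged between 4.21 and 4.39 in FHS rats, between 3.88 and 4.29 in CHS rats, between 4.11 and 4.32 in FNS rats and between 3.93 and 4.22 in CNS rats. The fructose changes were 0.19 ± 0.10 (SE) on the high-salt chow and 0.17 ± 0.10 (SE) on the normal-salt chow, with limma adjusted p values of 0.565 and 1.00. Tyrobp, the adaptor also known as DAP12 that carries signals of Trem2 and related receptors, ranged between 7.13 and 7.75 in FHS rats, between 7.03 and 7.56 in CHS rats, between 6.89 and 7.31 in FNS rats and between 6.81 and 7.66 in CNS rats. Its largest difference between 2 groups, 0.30 ± 0.19 (SE) between FHS and FNS rats, did not pass (limma adjusted p = 0.386). The 9 measured receptors and signalling partners of Tyrobp and the 6 measured genes of haemoglobin handling around Cd163 had no member that passed in any comparison.

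Read as a list, the markers did not share one direction between the chows. In CHS against CNS rats 5 were above 0, as were 50.7% of all TranscriptClusterIDs, and 5 below it. The median was 0.0365 beside 0.0042 over all TranscriptClusterIDs, and 1 of 10 passed, Cx3cr1, where 3.29% of all TranscriptClusterIDs passed. Both markers whose groups did not overlap, Cx3cr1 and Csf1r, were lower in CHS rats, as were 6.19% of all TranscriptClusterIDs. In FHS against FNS rats 5 were above 0, as were 56.9% of all, and 5 below it. The median was 0.0585 beside 0.0408, and 1 of 10 passed, C1qa, where 5.36% of all TranscriptClusterIDs passed. C1qa was the only marker with groups that did not overlap there, in the higher direction that 7.16% of all TranscriptClusterIDs took. The comparisons share rats: each group serves in one chow comparison and one fructose comparison, as CHS rats do in CHS against CNS and in FHS against CHS.

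**Figure D4:**
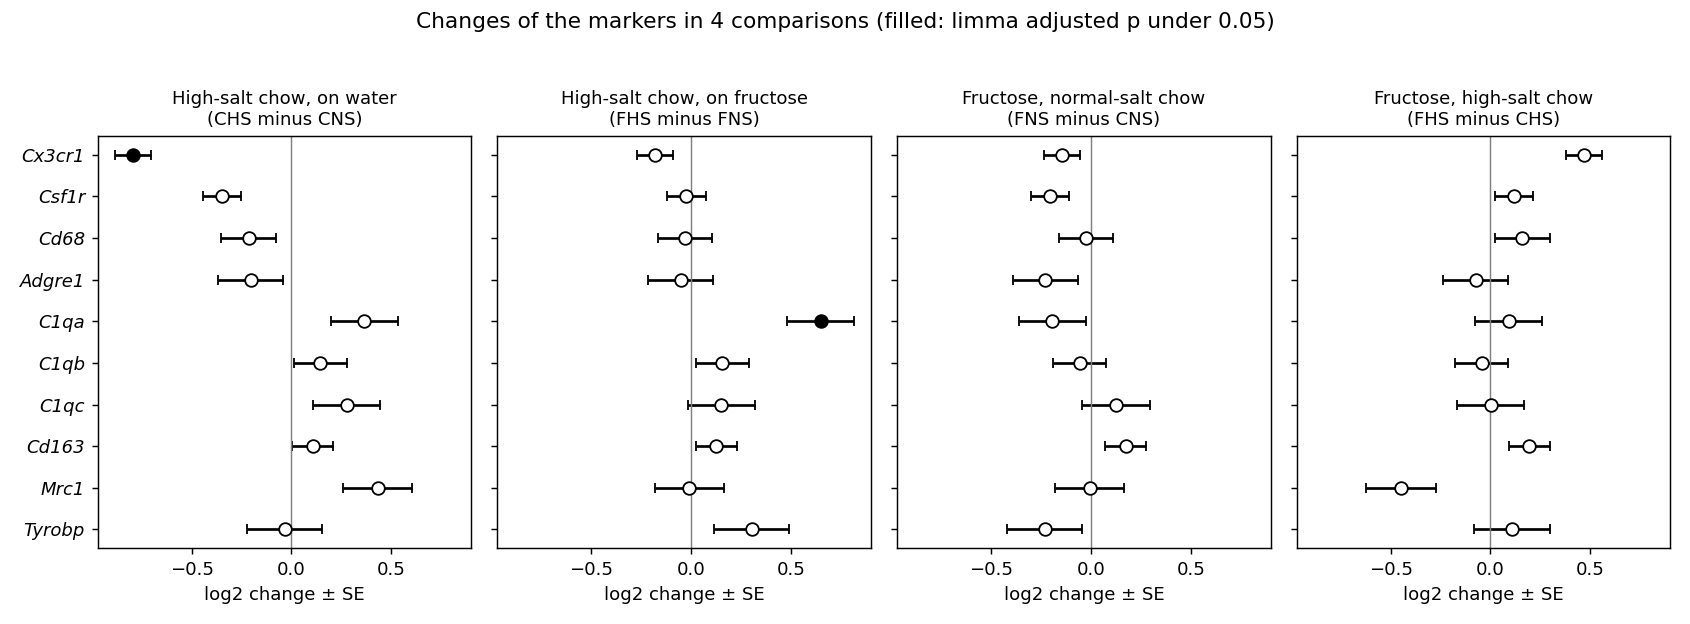
Log2 change ± SE of each marker (horizontal axes) in the 4 comparisons CHS minus CNS, FHS minus FNS, FNS minus CNS and FHS minus CHS; filled points passed at a limma adjusted p under 0.05 over 36685 TranscriptClusterIDs. The filled points are Cx3cr1 at -0.79 on the high-salt chow with water and C1qa at 0.65 on the high-salt chow with fructose.

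With fructose on the normal-salt chow 8 of the 10 markers lay below 0 in FNS against CNS rats, beside 50.3% of all TranscriptClusterIDs. Their median change was -0.10 beside -0.001 over all, and 7 were below 0 after quantile normalization. None passed, and neither did any other TranscriptClusterID (limma, 0% called). At an unadjusted p under 0.05, which 4.15% of all TranscriptClusterIDs reached, stood 1 marker, Csf1r, at -0.21 ± 0.10 (SE), and the analysis of variance named in the study's methods put 0 markers under that threshold. No marker had groups that did not overlap, which 1.5% of all TranscriptClusterIDs had in the higher and 1.62% in the lower direction. Tyrobp and Adgre1 had the lowest changes, both at -0.23. Lists of other cells moved in the same comparison, and their part in the result was not tested. Of the 10 proximal tubule markers 9 were above 0 at a median of 0.14, the mean level of the list lying between 12.20 and 12.27 in FNS rats and between 12.08 and 12.15 in CNS rats, without overlap. That list holds Cubn and Slc13a3, named here because the paper counts both in its fructose signature from these arrays. They changed by 0.30 and 0.20 and were the 2 of the list at an unadjusted limma p under 0.05. All 9 measured markers of fibroblasts and smooth muscle were below 0 at a median of -0.16, as were 7 of 8 endothelial markers at a median of -0.10, and the mean levels of these lists overlapped between FNS and CNS rats. None of these genes passed.

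With fructose on the high-salt chow 7 of the 10 markers lay above 0 in FHS against CHS rats, or 6 of 10 after either other scaling of the arrays, beside 56.4% of all TranscriptClusterIDs. Their median change was 0.10 beside 0.0291 over all, and it was -0.0083 without CHS rat 10 and 0.027 with arrays centred on their medians, beside -0.0428 over all under the same centring. None passed, in a comparison where 0.00273% of all TranscriptClusterIDs did (limma). At an unadjusted p under 0.05, which 9.62% reached, stood 2 markers, Cx3cr1 higher and Mrc1 lower, and the analysis of variance named in the methods put 1 marker there. Cx3cr1 was the only marker whose groups did not overlap, in the higher direction that 2.99% of all TranscriptClusterIDs took. The fructose change was below 0 on the normal-salt and above 0 on the high-salt chow for 5 of the 10 markers, namely Cx3cr1, Csf1r, Cd68, C1qa and Tyrobp, beside 27.9% of all TranscriptClusterIDs. The difference between the fructose changes was above 0 for 8 of 10 markers, or 7 after quantile normalization and 6 with arrays centred on their medians, beside 55.3% of all, and none passed (limma, 0% called overall; 2 markers, Cx3cr1 and Csf1r, at an unadjusted p under 0.05, beside 6.09% of all).

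A wider list of macrophage and phagocyte genes, 28 measured of 32, was set beside the markers. In FNS against CNS rats 20 of 28 were below 0, beside 50.3% of all TranscriptClusterIDs, at a median of -0.07, and in FHS against CHS rats 21 of 28 were above 0, beside 56.4% of all, at a median of 0.10, or 18 after quantile normalization and 17 with arrays centred on their medians. None of the 28 passed in either. In CHS against CNS rats 10 of 28 were above 0, beside 50.7% of all TranscriptClusterIDs, and 18 below it. The median was -0.08 beside 0.0042 over all, and none passed, where 3.29% of all did. In FHS against FNS rats 17 of 28 were above 0, beside 56.9% of all TranscriptClusterIDs, or 11 with arrays centred on their medians, and 1 passed, where 5.36% of all did. It was the macrophage lectin Clec10a at 0.61 ± 0.16 (SE; limma adjusted p = 0.0403), which was singled out after its values were seen. By the smallest p for the difference between the fructose changes the list was led by Vsig4, a complement receptor of tissue macrophages, at 0.28 ± 0.13, Fcgr1a, the high-affinity Fc receptor, at 0.54 ± 0.26, and Laptm5, a lysosomal protein of leukocytes, at 0.27 ± 0.14 (SE), none of which passed (limma adjusted p = 0.816, 0.824 and 0.824). Vsig4 was dim, with a mean signal of 3.28 at the 13.4 percentile of all TranscriptClusterIDs.

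Genes of monocyte and neutrophil recruitment were measured for 15 of 16 listed. In CHS against CNS rats 10 of 15 lay above 0, beside 50.7% of all TranscriptClusterIDs, and 5 below it. Their median was 0.06 beside 0.0042 over all, and 1 passed, Ccl2, where 3.29% of all did. Ccl2, the chemokine that draws monocytes from blood, fell in CHS rats. Its signals were 6.94, 6.74, 7.17 and 7.24 in CHS rats, against 7.84, 7.63, 7.92 and 7.53 in CNS rats. The groups did not overlap, and the difference was -0.71 ± 0.15 (SE; limma adjusted p = 0.0193). Ccr2, its receptor on monocytes, was lower in every CHS rat than in any CNS rat, with a difference of -0.70 ± 0.20 (SE) that was short of the threshold (limma adjusted p = 0.0694), with signals of 7.06, 6.74, 7.19 and 7.17 in CHS rats and 7.83, 7.43, 7.96 and 7.75 in CNS rats. Between FHS and CHS rats Ccl2 differed by 0.38 ± 0.15 and Ccr2 by 0.30 ± 0.20 (SE; limma adjusted p = 0.447 and 0.651). Fcnb, a ficolin of myeloid cells, rose in FHS against FNS rats by 0.53 ± 0.13 (SE; limma adjusted p = 0.0281). It was the 1 of 15 that passed there, where 5.36% of all TranscriptClusterIDs did.

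Genes of MHC class II presentation, shared by macrophages, dendritic cells and B cells, were set beside the markers as well. Of 8 measured, 7 were below 0 in FNS against CNS rats, beside 50.3% of all TranscriptClusterIDs, at a median of -0.23 beside -0.001 over all. In FHS against CHS rats 8 were above 0, beside 56.4% of all, at a median of 0.30 beside 0.0291. With arrays centred on their medians 7 were above 0 there. None passed in either comparison. RT1-Da, an alpha chain, rose in FHS against FNS rats by 0.87 ± 0.15 (SE; limma adjusted p = 0.00568). It was the 1 of 8 that passed there, where 5.36% of all TranscriptClusterIDs did.

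Markers of other cells moved beside these genes, and their part in the results was not tested. In CHS against CNS rats 50.7% of all TranscriptClusterIDs were above 0 and 3.29% passed. In FHS against FNS rats 56.9% of all were above 0 and 5.36% passed. Of 10 measured T and NK cell markers 8 were above 0 in CHS against CNS rats at a median of 0.27, the mean level of the list lying between 5.16 and 5.27 in CHS rats and between 5.005 and 5.07 in CNS rats, with none passing. Cd4, the brightest of the list at a mean signal of 9.03, went the other way at -0.37, while the dimmest, Cd3g, lay at the 14.3 percentile. The mean levels overlapped between FHS rats (5.15 to 5.27) and FNS rats (4.97 to 5.20). All 6 measured B cell markers were above 0 in that comparison at a median of 0.19, and Ms4a1, which encodes CD20, rose in FHS against FNS rats by 0.52 ± 0.14 (SE; limma adjusted p = 0.0456). Ms4a1 was dim, with a mean signal of 4.03 at the 27.1 percentile of all TranscriptClusterIDs. The 3 erythroid genes measured, of 7 listed, lay below 0 in both chow comparisons, and none passed. Their medians were -0.43 in CHS against CNS and -0.49 in FHS against FNS rats. Their mean level lay between 5.31 and 5.76 in CHS rats and between 5.83 and 6.05 in CNS rats. It overlapped between FHS rats (5.25 to 5.75) and FNS rats (5.58 to 6.27). Of 8 measured endothelial markers 6 were below 0 in CHS against CNS rats at a median of -0.17 and 2 passed. In FHS against FNS rats 5 were below and 3 above 0 at a median of -0.05, or 0.0011 after quantile normalization, and 1 passed. Cdh5, or VE-cadherin, fell in CHS against CNS rats by 0.66 and in FHS against FNS rats by 0.59 (limma adjusted p = 0.0252 and 0.0326), and Ehd3 fell in CHS against CNS rats by 0.64 (limma adjusted p = 0.0428). Of 10 markers of the distal tubule and collecting duct 6 were above and 4 below 0 in both chow comparisons, at medians of 0.07 in CHS against CNS and 0.15 in FHS against FNS rats, and 1 passed in each. It was Aqp2, the water channel of the collecting duct, which rose by 0.66 in CHS against CNS rats and by 1.06 in FHS against FNS rats (limma adjusted p = 0.0186 and 0.000861). Ms4a1, Aqp2 and Ehd3 are named by rule. Cdh5 and Cd4 are named after their values were seen, and Cd3g for its dim signal.

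**Figure D5:**
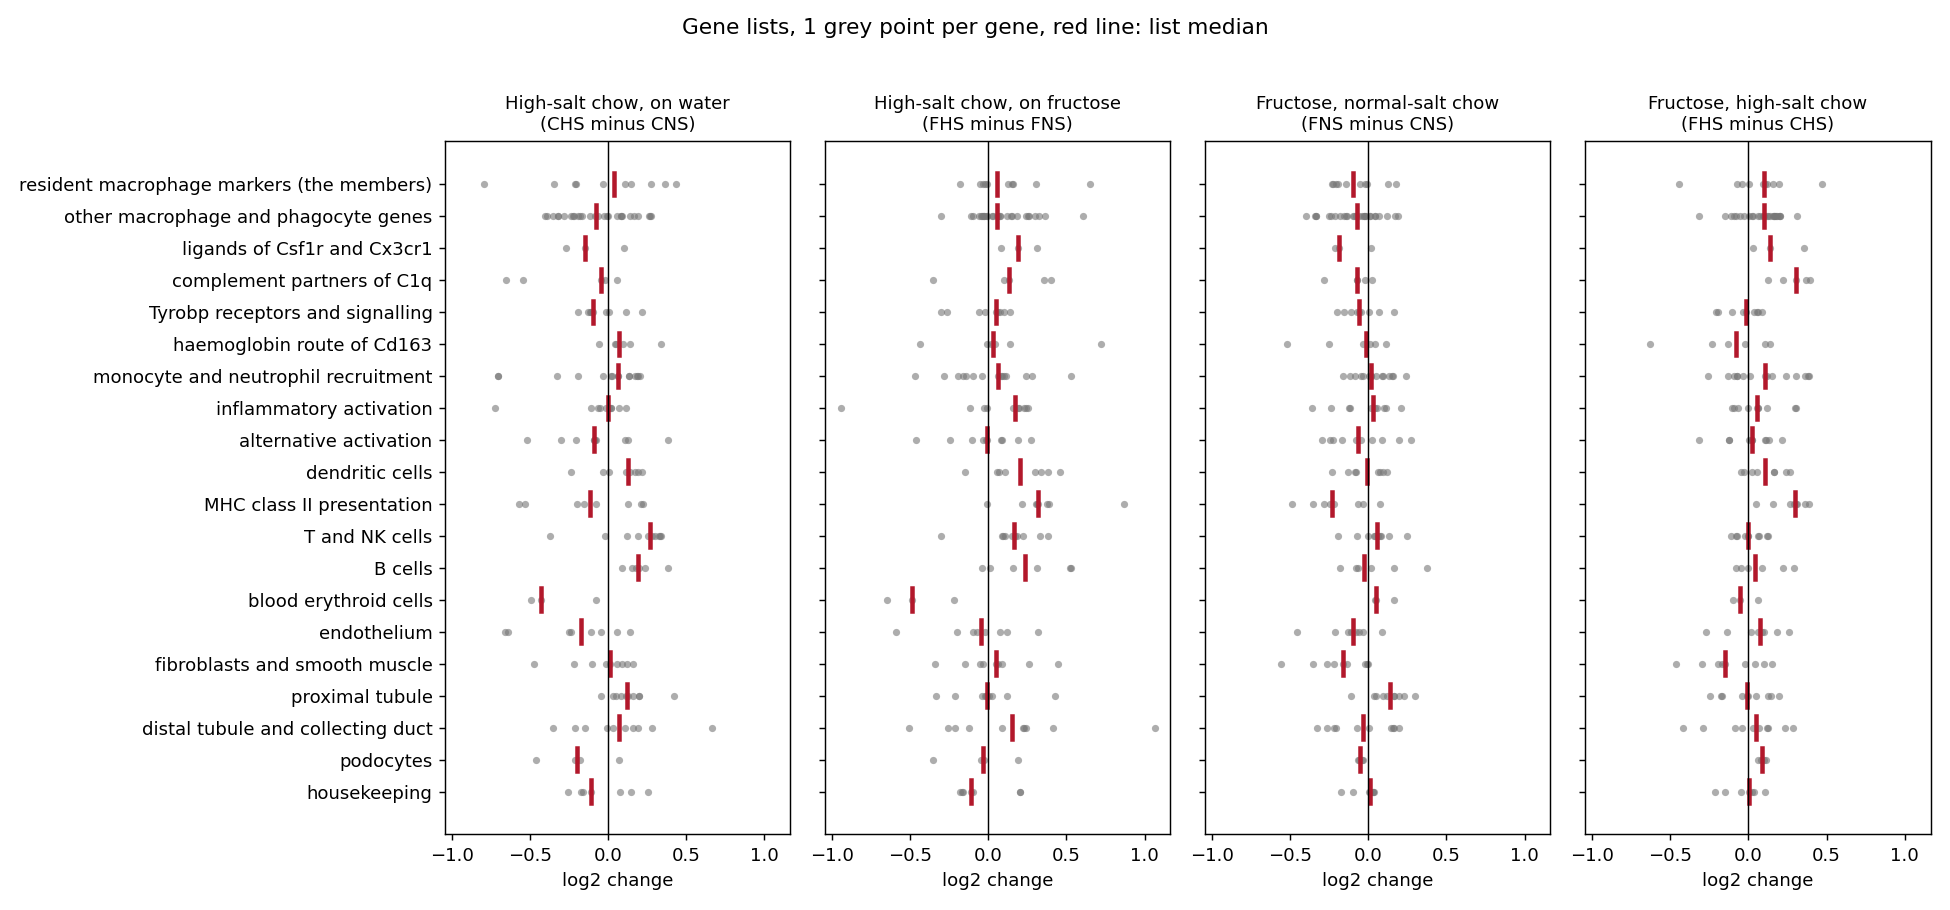
Log2 change (horizontal axes) of every measured gene of 20 lists in the 4 comparisons, 1 grey point per gene, with the list median as a red line. The median of the 10 markers lies near 0 for both chow comparisons, and the medians of the MHC class II genes are -0.23 for fructose on the normal-salt chow and 0.30 on the high-salt chow.

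The TranscriptClusterIDs most like the markers were sought among 18156 named ones outside the list, by Pearson r over the 16 rats with the mean of the 10 markers, each scaled to unit spread. The rats share chow and fluid groups, so that r describes these arrays and carries no p. Kctd12 was first at 0.862, followed by Fcgr3a, a low-affinity Fc receptor of macrophages and NK cells, at 0.82, Ly86, which encodes the myeloid protein MD-1, at 0.811, Asz1 at 0.807 and Wdr88 at 0.8. Ctss, the lysosomal protease cathepsin S, stood at 0.796, the leukocyte actin-binding genes Lcp1 and Coro1a at 0.782 and 0.778, the complement component C3 at 0.764 and Kcnj2 at 0.755. With group means removed these r lay between 0.695 and 0.874. Asz1 and Wdr88 had mean signals of 3.04 and 3.34. Against the mean of the 9 other markers, the markers themselves had within-group r between -0.244 for Mrc1 and 0.78 for C1qa. Over the 16 rats, the measure used for the ranking, their r lay between -0.352 for Mrc1 and 0.504 for C1qa. Cd163 at -0.185 and Cx3cr1 at -0.108 were also negative there, and the remaining markers were positive.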

How the data were processed

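Superficial cortex slices of 16 rat kidneys were measured on RaGene-2_0-st arrays, 1 per rat. The authors deposited log2 RMA values per TranscriptClusterID, made with Affymetrix Expression Console, named in the submitters' processing notes. Per the methods, probe signals were background-corrected, normalized between arrays and summarized by median polish on an rn5 annotation. RMA compresses changes of dim features, and arrays give no depth: the number of rats limits precision. Rats were grouped by the diet in the labels. Of the TranscriptClusterIDs, 18511 had 1 gene symbol in the platform annotation, 575 several and 17599 none, and 179 of 204 listed genes were found. limma 3.58.1 (R 4.3.3) fitted 4 group means to all 16 arrays, and p-values were adjusted by the Benjamini-Hochberg method over 36685 TranscriptClusterIDs. The model was tested on simulated data. Single markers were also tested by exact permutation of 4 against 4 rats, two-sided. Pairs of markers were tested by 100000 permutations within groups. Python 3.11.15 with scipy 1.17.1 was used for these.

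P-values treat the rats as independent, and cage mates, not identified in the labels, may not be. The markers, lists and tests were chosen with earlier results of these data known. Genes other than the markers were named by a rule: up to 3 per list with the smallest p for the difference between the fructose changes, and the 10 most like the markers. Genes outside it are named as such. Alternatives were quantile normalization, arrays centred on their medians, dim features left out, only the 8 arrays compared, an intensity trend, array weights, the methods' analysis of variance and each rat left out in turn. Promoters came from RefSeq (GRCr8).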

Additional observations from a re-analysis of the deposited data

Results flagged for a closer look

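Among 40 groups of 4 rats (10 markers in 4 groups), 2 held a rat far from the other 3, and chance alone gives about 1 in 20. C1qc was 6.22 in CHS rat 10, where the nearest CHS rat had 6.54, a gap of 0.861 of the group's range. Cd163 was 4.22 in CNS rat 4, where the nearest CNS rat had 3.97, a gap of 0.877 of the range. Of the 10 differences between the fructose changes on the 2 chows, 0 passed (limma), and 2 had an unadjusted p under 0.05.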

How the results depend on the processing

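No paired analysis was possible because the groups share no replicate numbers: each rat has a number of its own. Each marker has 1 TranscriptClusterID, so averaging over several gave no value. Of 1085 values of single markers under other settings, 1019 kept their direction and side of the threshold. Of the others, 54 took the other sign (in 15 of 50 results), 7 were no longer called and 5 were newly called, and the cause was not tested. Many of the kept directions were fixed in advance. In the chow and fructose comparisons, leaving out a rat of a group not compared cannot move the log2 change. Leaving out dim features, using only the arrays compared and the intensity trend also leave that change as it was, and can move only its p. The count of 1019 is therefore not a measure of how firm the directions are.

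Quantile normalization turned Mrc1 in FNS against CNS to 0.0015, C1qc in FHS against CHS to -0.0368, Tyrobp in CHS against CNS to 0.0008, Csf1r in FHS against FNS to 0.0287 and the difference between the fructose changes of Cd163 to -0.0463. Centring arrays on their medians turned C1qc in FHS against CHS to -0.0711, that difference to -0.0327 for Cd163 and -0.0395 for C1qb, and the median of the markers in FHS against FNS to -0.0166. Array weights turned C1qb in FNS against CNS to 0.0006 and the difference between the fructose changes to -0.0587 for C1qb and -0.0147 for Cd163. Leaving out dim features, which drops Cd163 and leaves 9 markers, turned the markers' median to -0.0338 in CHS against CNS and -0.009 in FHS against FNS.

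Calls over all TranscriptClusterIDs moved too. In FHS against CHS the count of 1 became 22 without dim features, 3 with an intensity trend and 0 with either the 8 arrays alone or the methods' analysis of variance after adjustment. In CHS against CNS, 1208 became 533 with 8 arrays and 400 with the analysis of variance, and in FHS against FNS 1968 became 733 and 214. Without adjustment the analysis of variance put 1887 (FNS against CNS), 2828 (FHS against CHS), 6148 (CHS against CNS) and 6852 (FHS against FNS) under its threshold. These counts come from a rerun over 36685 TranscriptClusterIDs and are not the study's own, which were lower for its fructose comparisons.

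With each rat left out in turn, calls ranged between 0 and 4 in FHS against CHS, 562 and 1468 in CHS against CNS, 868 and 2186 in FHS against FNS, and 0 and 1 for the difference between the fructose changes. The median of the markers ranged between -0.0083 and 0.1812 in FHS against CHS, between -0.0196 and 0.0821 in CHS against CNS (below 0 without CNS rat 3 or CHS rat 12) and between 0.0665 and 0.2525 for that difference. In FNS against CNS, Cd68 ranged between -0.1277 and 0.1306, C1qb between -0.147 and 0.0355 and Mrc1 between -0.089 and 0.1379. In FHS against CHS, Adgre1 ranged between -0.1927 and 0.0393, C1qa between -0.0353 and 0.1925, C1qb between -0.1164 and 0.0166, C1qc between -0.1 and 0.1138 and Tyrobp between -0.0081 and 0.1986. For the difference between the fructose changes, C1qb ranged between -0.0792 and 0.1033 and Cd163 between -0.0637 and 0.0737. Tyrobp in CHS against CNS ranged between -0.2097 and 0.0732. In FHS against FNS, Csf1r ranged between -0.0655 and 0.0322, Cd68 between -0.1859 and 0.0724, Adgre1 between -0.1704 and 0.043 and Mrc1 between -0.1533 and 0.1095. None of the values that changed sign had passed the threshold.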
